A study of Homo sapiens with 6 samples.

Results

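The zinc finger genes numbered ZNF700 to ZNF899 were followed through 6 microarrays of A549 cells. The members are the genes whose probe set carries a single symbol in the range ZNF700 to ZNF899 with no letter after the number. They came to 84 genes, measured by 85 probe sets, of 22395 genes and 53617 probe sets in all. A549 is an established line of human lung adenocarcinoma cells. The 3 groups of 2 arrays each were vehicle, Comp.2 at 2 µM and Comp.4 at 2 µM, all from RNA taken on day 2 of treatment, and the series presents both compounds as histone acetyltransferase inhibitors directed to chosen DNA sequences. The labels do not say whether the 2 arrays of a group came from separate cultures, so the p-values measure only the spread between these arrays, which may be technical.

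Genes named ZNF mostly encode proteins with runs of classical zinc fingers, small folds in which cysteines and histidines hold a zinc ion and which read DNA in a row along the groove. Many of them also carry a KRAB domain, which binds the scaffold TRIM28, and TRIM28 in turn brings in the histone methyltransferase SETDB1 and heterochromatin proteins to silence the bound site, often a transposable element. The KRAB group grew by repeated tandem duplication and is densest on chromosome 19. Of the 84 members, 42 lay on chromosome 19, 13 on chromosome 7 and 8 on chromosome 16, and no other chromosome held more than 4.

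Probe set signals of the members were moderate. Their mean log2 levels over the 6 arrays ran from 2.48 for ZNF729 to 8.38 for ZNF770, with a median of 5.40 beside 5.35 over all genes. The mean of 43 members was above the level of the median gene, and that of the other 41 was not. Signals of different probe sets depend on the probes, so these levels do not rank the genes. The 2 arrays of a group differed for the median member by 0.11 in vehicle, 0.11 in Comp.2 and 0.12 in Comp.4 on the log2 scale, beside 0.084, 0.10 and 0.097 for the median gene. Differences over 0.5 between the arrays of a group occurred for 1 member in vehicle (ZNF714), 6 in Comp.2 and 1 in Comp.4 (ZNF726).

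The array medians over all probe sets lay between 4.55 and 4.56. Of 9 markers of A549 cells, 6 were above the level of the median gene: the epithelial cadherin gene CDH1 had a mean log2 level of 10.23, the keratin gene KRT18 8.20 and EPCAM 7.34. The other 3, the lung markers NKX2-1 (4.32), SFTPB (3.53) and SFTPC (4.72), were under it. Of the markers of other cell types, 1 of 5 measured for fibroblasts was above the median gene (COL1A1, 5.44), 1 of 4 for endothelium (CLDN5, 5.74) and 1 of 5 for leukocytes (CD14, 6.02), while the leukocyte gene PTPRC was at 2.69. No marker was called by limma in any comparison.

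A single member passed the test in any of the 3 comparisons. ZNF841, a chromosome 19 gene of the KRAB zinc finger group, was lower after Comp.4 than after Comp.2. Its log2 levels were 6.39 and 6.35 in vehicle, 6.68 and 6.56 in Comp.2, and 5.98 and 5.95 in Comp.4. The Comp.4 arrays were the lowest and the Comp.2 arrays the highest, with vehicle between them and no overlap between any groups. The level after Comp.4 was 1.57-fold lower than after Comp.2, a log2 difference of -0.65 (SE 0.08, 95% interval -0.84 to -0.47, n = 2 per group, limma adjusted p = 0.0363). Against vehicle, ZNF841 stood at -0.41 (95% interval -0.59 to -0.22, limma adjusted p = 0.0993) after Comp.4 and at 0.25 (95% interval 0.06 to 0.43, limma adjusted p = 0.339) after Comp.2, so neither compound moved it past the threshold of 0.05 from vehicle. Without any 1 of the 6 arrays the direct difference stayed between -0.72 and -0.59, but the call was lost. Such fits have fewer residual degrees of freedom, so the loss does not show that the call depends on a particular array. The vehicle arrays enter this comparison only through the shared spread.

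The RefSeq promoter of ZNF841, 250 bases before to 50 after its start, is shown because this is the called member. It covers chr19:52095716-52096015 of GRCh38.p14 on the minus strand. Capitals mark, on either strand, 3 motifs. The GC box is spelled GGGCGG. The CCAAT box has those letters. The ETS core, read by a family of transcription factors, is CCGGAAG. The promoter of ZNF845, chr19:53333499-53333798 on the plus strand, is set under it as a chromosome 19 member whose Comp.2 and Comp.4 arrays both lay above vehicle.
ZNF841: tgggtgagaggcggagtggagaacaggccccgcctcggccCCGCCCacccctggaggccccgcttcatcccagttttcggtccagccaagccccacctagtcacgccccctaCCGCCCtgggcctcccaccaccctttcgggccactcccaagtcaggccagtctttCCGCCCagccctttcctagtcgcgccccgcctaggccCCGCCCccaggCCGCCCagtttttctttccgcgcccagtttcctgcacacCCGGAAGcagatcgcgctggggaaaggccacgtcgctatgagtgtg
ZNF845: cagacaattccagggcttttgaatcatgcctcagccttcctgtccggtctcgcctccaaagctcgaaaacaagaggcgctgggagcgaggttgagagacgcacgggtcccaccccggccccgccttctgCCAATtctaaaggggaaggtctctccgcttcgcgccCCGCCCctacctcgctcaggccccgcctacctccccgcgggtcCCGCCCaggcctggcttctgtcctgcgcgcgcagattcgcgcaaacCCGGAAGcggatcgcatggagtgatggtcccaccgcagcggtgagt
The ZNF841 window holds 5 matches to the GC box and 1 to the ETS core. In both windows the ETS core match lies close to the start of the gene. These matches are descriptions of the letters and not evidence of binding.

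**Figure D1:**
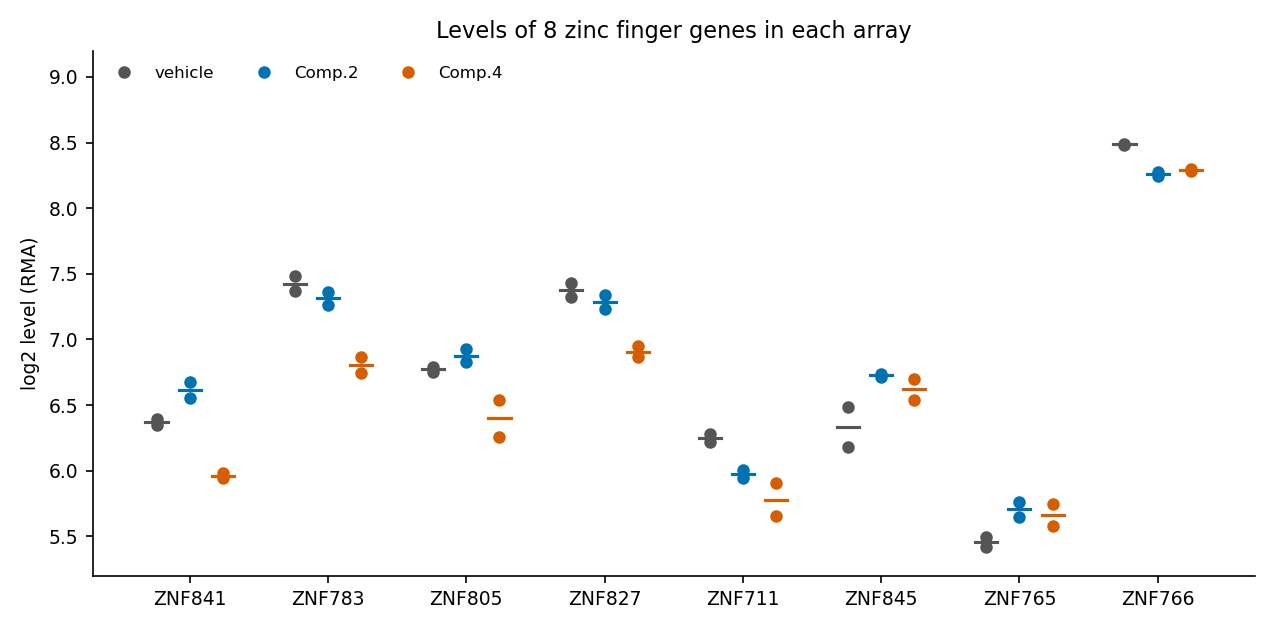
Log2 RMA level (vertical axis) of 8 members in each array, with 1 point per array and a bar at the mean of the 2 arrays of vehicle, Comp.2 and Comp.4. The Comp.4 arrays of ZNF841, at 5.98 and 5.95, lie under both vehicle and Comp.2 arrays, whereas ZNF845 lies above vehicle in both treated groups.

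Comp.4 against vehicle asks what the second compound did to these genes. No member passed the limma test, in which 0.147% of all genes were called. A limma fit with a variance trend tested all 84 members, and one with only the brighter genes tested 43. In each, 4 members were called lower (ZNF711, ZNF783, ZNF827 and ZNF841), where 3.3% and 4.46% of the genes tested were called lower. With an unadjusted p under 0.05, 8 members were higher and 12 lower, beside 8.64% and 7.88% of all genes. The arrays of the groups did not overlap for 21 members that were higher after Comp.4 and 20 that were lower, which is 25.0% and 23.8% of the members, beside 27.2% and 22.2% of all genes. The median difference of the members was 0.03, beside 0.02 over all genes, and their differences ran from -0.62 to 0.56. Both compounds were compared with the same vehicle arrays, so values for the compounds are given side by side and not as independent results.

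The member with the lowest difference was ZNF783, a KRAB-type gene on chromosome 7. Its log2 levels were 7.37 and 7.48 in vehicle, 7.37 and 7.26 in Comp.2, and 6.75 and 6.86 in Comp.4. Both Comp.4 arrays lay under the other 4 arrays. The difference from vehicle was -0.62 after Comp.4 (SE 0.09, 95% interval -0.82 to -0.42, limma adjusted p = 0.0641) and -0.11 after Comp.2 (limma adjusted p = 0.673). A second ZNF783 probe set gave -0.08 after Comp.4, with arrays at 5.61 and 5.41 beside 5.42 and 5.76 in vehicle. The 2 probe sets of this gene therefore disagreed in size, and only the brighter one separated the groups. The RefSeq promoter of ZNF783 (chr7:149261946-149262245, GRCh38.p14, plus strand, marked as above) is shown with those of ZNF711 (chrX:85243741-85244040, plus strand) and ZNF805 (chr19:57240382-57240681, plus strand), whose arrays are given next and were also low after Comp.4.
ZNF783: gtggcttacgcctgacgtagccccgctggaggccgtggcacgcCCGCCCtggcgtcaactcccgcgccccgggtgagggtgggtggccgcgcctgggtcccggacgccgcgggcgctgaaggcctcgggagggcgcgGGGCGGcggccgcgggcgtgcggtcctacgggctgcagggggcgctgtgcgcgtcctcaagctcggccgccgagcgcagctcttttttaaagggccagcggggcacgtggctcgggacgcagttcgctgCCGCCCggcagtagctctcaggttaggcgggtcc
ZNF711: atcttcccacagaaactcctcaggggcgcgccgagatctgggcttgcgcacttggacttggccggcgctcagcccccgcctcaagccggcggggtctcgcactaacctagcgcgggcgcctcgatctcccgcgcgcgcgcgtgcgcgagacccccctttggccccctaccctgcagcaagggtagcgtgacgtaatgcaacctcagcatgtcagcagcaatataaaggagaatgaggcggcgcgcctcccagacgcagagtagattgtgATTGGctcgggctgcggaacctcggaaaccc
ZNF805: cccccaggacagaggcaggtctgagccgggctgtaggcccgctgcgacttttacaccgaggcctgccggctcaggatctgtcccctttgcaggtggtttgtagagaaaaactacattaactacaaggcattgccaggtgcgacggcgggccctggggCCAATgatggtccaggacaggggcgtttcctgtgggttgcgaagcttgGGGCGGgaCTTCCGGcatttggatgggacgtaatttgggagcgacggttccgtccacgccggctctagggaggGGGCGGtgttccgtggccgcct
The ZNF783 window holds 3 GC box matches and neither of the other marked motifs. The ZNF711 window holds a single marked motif, a CCAAT box on the opposite strand.

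ZNF827, a zinc finger gene whose protein brings the NuRD remodelling complex to telomeres in cells that maintain them by recombination, had levels of 7.43 and 7.32 in vehicle, 7.34 and 7.23 in Comp.2, and 6.87 and 6.95 in Comp.4. Its difference from vehicle was -0.47 after Comp.4 (SE 0.08, 95% interval -0.66 to -0.27, limma adjusted p = 0.0874) and -0.09 after Comp.2 (limma adjusted p = 0.728). ZNF711, an X-linked gene known from intellectual disability whose protein works with the histone demethylase PHF8, had levels of 6.22 and 6.28 in vehicle, 6.01 and 5.95 in Comp.2, and 5.65 and 5.91 in Comp.4. All 4 treated arrays were under the vehicle arrays, at differences of -0.47 after Comp.4 (SE 0.10, 95% interval -0.71 to -0.23, limma adjusted p = 0.114) and -0.27 after Comp.2 (limma adjusted p = 0.396). ZNF805 had levels of 6.79 and 6.76 in vehicle, 6.93 and 6.83 in Comp.2, and 6.54 and 6.26 in Comp.4. Its Comp.4 arrays were the lowest, 0.28 apart from each other, and the difference from vehicle was -0.37 (limma adjusted p = 0.176). ZNF875 had a difference of -0.32 (limma adjusted p = 0.219), with its Comp.4 arrays at 6.52 and 6.36 under vehicle arrays at 6.70 and 6.83.

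On the other side of vehicle after Comp.4, members above the median gene with arrays apart had differences of at most 0.29. ZNF845 had levels of 6.49 and 6.18 in vehicle, 6.73 and 6.72 in Comp.2, and 6.70 and 6.54 in Comp.4. All 4 treated arrays lay above vehicle, at differences of 0.29 after Comp.4 (limma adjusted p = 0.285) and 0.39 after Comp.2 (limma adjusted p = 0.313). The vehicle arrays of ZNF845 themselves lay 0.30 apart. ZNF764 had a difference of 0.28, ZNF837 0.21, ZNF765 0.20 and ZNF747 0.19 after Comp.4. The highest difference of all, 0.56 for ZNF836, came from a dim probe set, with arrays at 3.79 and 3.64 in vehicle and 4.48 and 4.07 in Comp.4 (limma adjusted p = 0.211). ZNF836 lies outside the rule for named genes and was chosen after its values were seen.

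**Figure D2:**
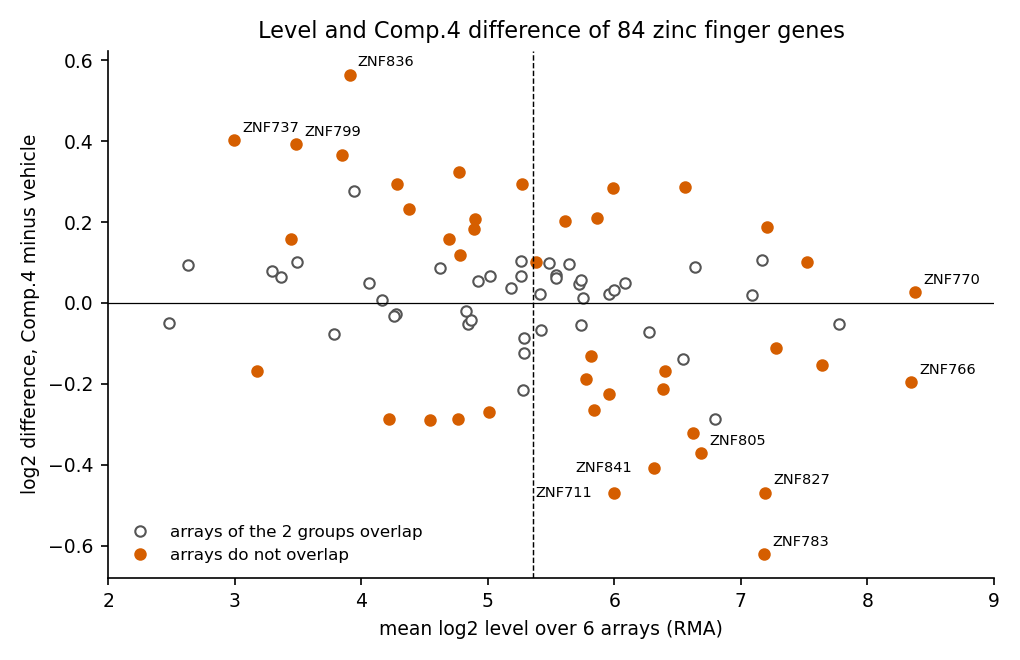
Log2 difference between Comp.4 and vehicle (vertical axis) against the mean log2 RMA level over the 6 arrays (horizontal axis) for the 84 members, with filled points where the arrays of the groups do not overlap and the dashed line at the level of the median gene, 5.35. The lowest point is ZNF783 at -0.62 among the brighter members, and the highest is ZNF836 at 0.56 among the dimmer ones.

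Comp.2 against vehicle gave no called member either, where 0.196% of all genes were called by limma. With an unadjusted p under 0.05, 9 members were higher and 8 lower, beside 6.23% and 4.94% of all genes. The arrays did not overlap for 26 members that were higher after Comp.2 (31.0%) and 17 that were lower (20.2%), beside 22.7% and 21.0% of all genes. The median difference was 0.03, beside 0.004 over all genes, and the range was -0.34 to 0.56. The highest difference belonged to ZNF813, at levels of 4.35 and 4.61 in vehicle and 5.40 and 4.68 in Comp.2. The first Comp.2 array carried most of it, and the 95% interval ran from 0.03 to 1.08 (limma adjusted p = 0.427).

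ZNF766 had closely matching arrays in each group. Its levels were 8.49 and 8.48 in vehicle, 8.25 and 8.27 in Comp.2, and 8.30 and 8.29 in Comp.4. Both compounds stood under vehicle, at -0.23 for Comp.2 (95% interval -0.39 to -0.07, limma adjusted p = 0.316) and -0.20 for Comp.4 (95% interval -0.36 to -0.03, limma adjusted p = 0.23). ZNF749 was at -0.26 after Comp.2, with arrays at 6.30 and 6.26 beside 6.63 and 6.46 in vehicle. ZNF746, also called PARIS, which represses the gene of the mitochondrial regulator PGC-1 alpha, was at -0.17 after Comp.2 and -0.23 after Comp.4. ZNF761 was at -0.10 and -0.17. None of these passed the test.

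None of the remaining members with known roles passed the test. ZNF768, which binds a mammalian repeat element, was at 0.12 after Comp.2 and 0.10 after Comp.4. ZNF703, a corepressor gene amplified in some breast cancers, was at 0.14 and 0.02. ZNF706, which encodes a short protein with a single finger, was at 0.23 and 0.07. ZNF808, a KRAB gene needed for pancreas development, was at 0.23 and 0.30, with arrays at 5.04 and 5.15 in vehicle, 5.28 and 5.37 in Comp.2, and 5.27 and 5.52 in Comp.4. All 4 treated arrays of ZNF808 lay above vehicle, and the 95% interval after Comp.4 was 0.05 to 0.54 (limma adjusted p = 0.239). A dimmer probe set shared by ZNF701 and ZNF808 was at -0.08 after Comp.2 and 0.34 after Comp.4. Its arrays overlapped those of vehicle for both compounds, and no test result was read out for it. ZNF800 was at -0.08 and -0.15, and ZNF830, a gene of the DNA damage response, at 0.04 and -0.05. ZNF750, an epidermal differentiation factor with a dim probe set here, had both Comp.2 arrays at 4.16 and both vehicle arrays at 4.34, a difference of -0.18 (limma adjusted p = 0.409). ZNF770, the brightest probe set, was at -0.07 (95% interval -0.23 to 0.09) after Comp.2 and at 0.03 (95% interval -0.13 to 0.19) after Comp.4. ZNF740 was at 0.02 and -0.11, ZNF791 at 0.17 and 0.11, and ZNF883 at 0.01 and 0.06.

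The direct comparison asks where Comp.4 and Comp.2, given at the same dose and time, differed. In it, limma called 0.371% of all genes and 0.179% as lower after Comp.4, and ZNF841 was the 1 member called. With the variance trend (84 members) or the brighter genes alone (43 members), 4 members were called lower (ZNF783, ZNF805, ZNF827 and ZNF841), where 2.64% and 3.5% of the genes tested were. With every probe set in the adjustment ZNF841 was not called either (limma adjusted p = 0.0792). With an unadjusted p under 0.05, 4 members were higher and 7 lower after Comp.4 than after Comp.2, beside 7.52% and 7.45% of all genes. The arrays did not overlap for 12 members that were higher (14.3%) and 21 that were lower (25.0%), beside 23.7% and 21.6% of all genes. The median was -0.02, beside 0.008 over all genes. After ZNF841, the lowest were ZNF783 at -0.51 (95% interval -0.71 to -0.30, limma adjusted p = 0.0814), ZNF805 at -0.48 (95% interval -0.73 to -0.22, limma adjusted p = 0.132) and ZNF827 at -0.38 (95% interval -0.57 to -0.18, limma adjusted p = 0.127). ZNF786 was at -0.29, ZNF776 at -0.25 and ZNF875 at -0.23. For ZNF766 the compounds differed by 0.03, with an interval of -0.13 to 0.19, and for ZNF845 by -0.10, with an interval of -0.38 to 0.17.

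**Figure D3:**
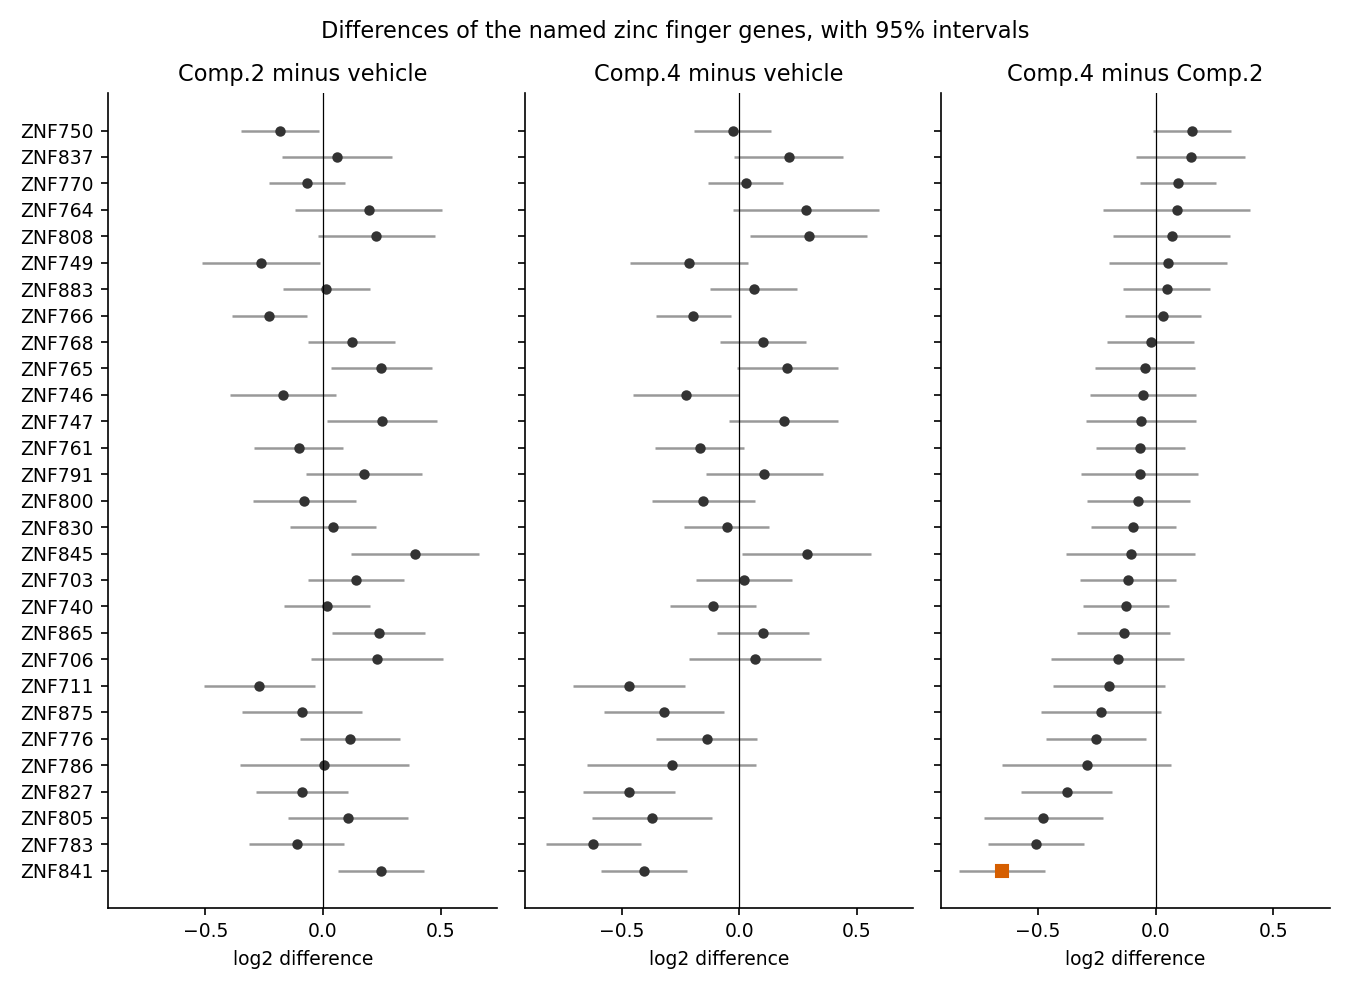
Log2 differences (horizontal axis) of the 29 named members in the 3 comparisons, with 95% intervals from limma, ordered by the difference between Comp.4 and Comp.2. The square marks ZNF841 at -0.65 in the direct comparison, the only called value. Within each comparison the intervals of most other members cross 0.

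The members above and below the level of the median gene were also described apart. Among the 43 brighter members, the arrays of Comp.4 lay under those of Comp.2 for 16 (37.2%) and above them for 4 (9.30%), beside 28.3% and 26.6% of the 11197 brighter genes. Among the 41 dimmer members, they lay under for 5 (12.2%) and above for 8 (19.5%), beside 14.9% and 20.8% of the 11198 dimmer genes. The median direct difference was -0.07 for the brighter members and 0.04 for the dimmer ones, beside -0.003 for all brighter genes and 0.02 for all dimmer genes. The 194 brighter genes with other ZNF numbers had a median of -0.07 as well, with 67 lower (34.5%) and 24 higher (12.4%). Against vehicle, the medians were 0.04 after Comp.2 and 0.01 after Comp.4 for the brighter members, and -0.02 and -0.07 for the brighter other ZNF genes. The difference between these sets was not tested. Across the 84 members, Spearman's rho between level and difference was -0.36 for Comp.4 against vehicle and -0.40 for Comp.4 against Comp.2, beside -0.13 and -0.07 across all genes. For Comp.2 against vehicle it was -0.04, beside -0.09 across all genes. Across the 43 brighter members rho was -0.28 for Comp.4 against vehicle, -0.11 for Comp.4 against Comp.2 and -0.25 for Comp.2 against vehicle. Across all brighter genes these were -0.09, -0.06 and -0.05. These describe genes on the same arrays, which are not independent replicates. Of the other families, none of the 349 genes with other ZNF numbers and none of the 41 genes numbered ZFP, ZSCAN or ZKSCAN was called by limma in any comparison.

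**Figure D4:**
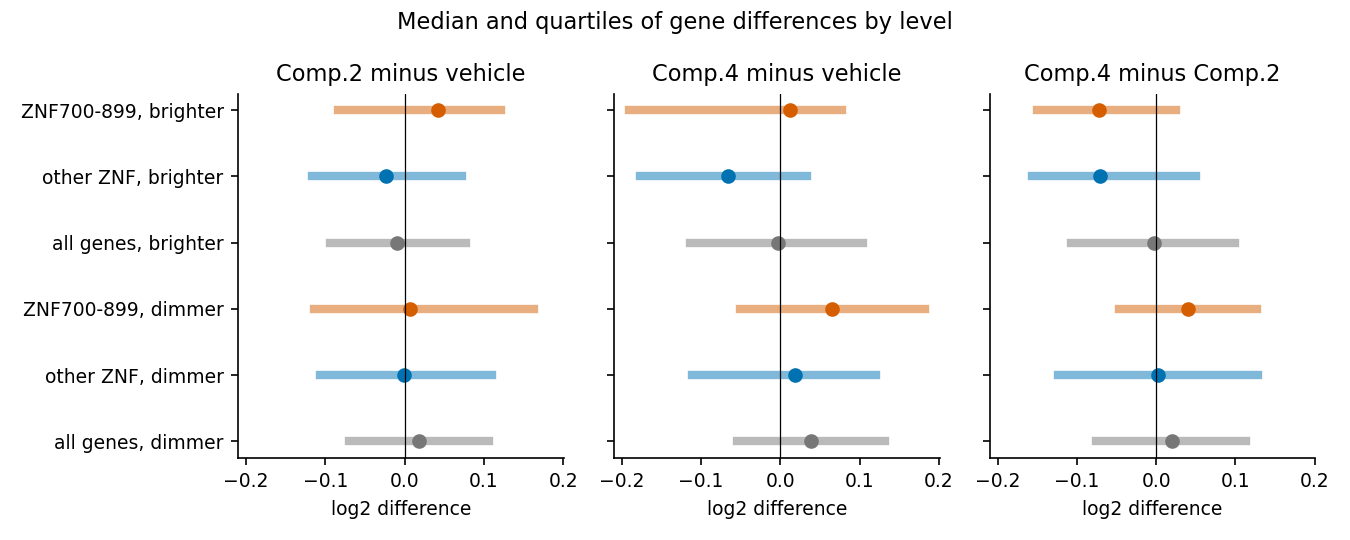
Median (point) and quartiles (bar) of the log2 differences (horizontal axis) in the 3 comparisons, for members, other ZNF genes and all genes above or below the level of the median gene. In Comp.4 minus Comp.2 the brighter members and the brighter other ZNF genes both have their median at -0.07, and all brighter genes at -0.003.

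Members that stand next to each other on a chromosome formed 8 runs with 19 members. On chromosome 16, ZNF768, ZNF747 and ZNF764 were at 0.12, 0.25 and 0.19 after Comp.2 and at 0.10, 0.19 and 0.28 after Comp.4. On chromosome 19, ZNF765, ZNF761 and ZNF813 were at 0.25, -0.10 and 0.56 after Comp.2, so neighbours there did not share a direction. On chromosome 7, ZNF783 and ZNF746 were at -0.62 and -0.23 after Comp.4, while ZNF777 between them was at 0.09. ZNF865, in a pair with ZNF784, was at 0.24 after Comp.2 and 0.10 after Comp.4. No value in these runs passed the test. By chromosome, the median differences after Comp.2 and Comp.4 were 0.04 and 0.03 for the 42 members on chromosome 19, 0.01 and 0.08 for the 13 on chromosome 7, and 0.11 and 0.10 for the 8 on chromosome 16. The 1451 genes of chromosome 19 had medians of 0.004 and 0.04.

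RefSeq promoters were matched for 65 members and 15308 tested genes. The GC box GGGCGG, searched on both strands as were the others, occurred in 72.3% of the member windows and 57.8% of all windows. CCAAT occurred in 58.5% and 36.0%, and the ETS core CCGGAAG in 33.8% and 13.9%. TATAAA occurred in 6.15% and 9.35%. The median GC content was 62.0% for members and 62.7% for all. The longest run of letters shared by the windows of at least 5 members was then searched for. The count of 5 members below was therefore a floor set by the search. A 20-letter stretch, TCCCGCCCAGGCCTGGCTTC, was found in the windows of 5 members and in no other of the 15308. They are ZNF761 (chr19:53431935-53431964), ZNF765 (chr19:53395100-53395129), ZNF808 (chr19:52527619-52527648), ZNF813 (chr19:53467698-53467727) and ZNF845 (chr19:53333700-53333729), all on the plus strand of chromosome 19. The stretches are shown as the longest letters that the search found. After Comp.2 the arrays lay above vehicle for 31.0% of the 84 members and 22.7% of all genes. After Comp.4 they did so for 25.0% and 27.2%. A link between the stretch and the levels was not tested. Capitals mark the shared letters.
ZNF761: gcgggTCCCGCCCAGGCCTGGCTTCtgctc
ZNF765: gcgggTCCCGCCCAGGCCTGGCTTCtttcc
ZNF808: ccaccTCCCGCCCAGGCCTGGCTTCcgtcc
ZNF813: ccaggTCCCGCCCAGGCCTGGCTTCtgtcc
ZNF845: gcgggTCCCGCCCAGGCCTGGCTTCtgtcc
After Comp.2 these genes stood at -0.10, 0.25, 0.23, 0.56 and 0.39 against vehicle, in that order. After Comp.4 they stood at -0.17, 0.20, 0.30, 0.32 and 0.29. ZNF761 stood under vehicle after both compounds, with its vehicle arrays at 6.48 and 6.51 above treated arrays at 6.32, 6.46, 6.29 and 6.36. The 5 genes were picked by the shared letters, their values were known when the stretch was looked for, and no value among them passed the test. Cross-reaction between their probes was not tested.

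A 13-letter stretch, TATCCAATCAGGG, was found in the windows of 5 other members and in 17 of the 15308, each of the 17 named ZNF. The same search among the members without the first stretch picked it, so its count of 5 was also a floor set by the search. It holds a CCAAT box and is shown for ZNF708 (chr19:21329423-21329452, minus strand) and ZNF737 (chr19:20565849-20565878, minus strand), the members with the lowest and highest Comp.4 values among the 5.
ZNF708: tttaacatTATCCAATCAGGGactctgagc
ZNF737: ttaagcatTATCCAATCAGGGacgctgggc
ZNF708, ZNF716, ZNF737, ZNF823 and ZNF878 stood at -0.29, 0.28, 0.40, 0.06 and 0.01 after Comp.4 and at -0.19, 0.15, 0.34, 0.17 and -0.01 after Comp.2. The genes with this stretch thus had values on both sides of vehicle, and none was called.

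Genes of the KRAB repressor pathway were read from a list of 35 genes, of which 31 were measured. The list includes the zinc finger genes ZNF274 and ZFP57, which are also counted in the other families above. None was called by limma in any comparison. Against vehicle, 7 of the 31 were lower after Comp.4 (22.6%) and 1 was higher (3.23%) at an unadjusted p under 0.05, beside 7.88% and 8.64% of all genes and 12.2% and 9.63% of the brighter genes. After Comp.2 none of the 31 was past that level in either direction, beside 4.94% lower and 6.23% higher of all genes. The medians of the list were -0.05 after Comp.2 and -0.10 after Comp.4, beside 0.004 and 0.02 over all genes and -0.009 and -0.003 over the brighter genes. TRIM28, the scaffold that KRAB domains bind, had a mean level of 10.45 and differences of -0.13 after Comp.2 (limma adjusted p = 0.566) and -0.12 after Comp.4 (limma adjusted p = 0.464). SETDB1, the methyltransferase of the complex, was at -0.19 (limma adjusted p = 0.452) and -0.23 (limma adjusted p = 0.235). ATF7IP, the partner that stabilises SETDB1, was at 0.03 after Comp.2 and -0.28 after Comp.4 (limma adjusted p = 0.149). It lies outside the rule for named genes and was chosen after its values were seen, as the lowest of the list after Comp.4. The highest was SUMO2, at 0.20 after Comp.4 (limma adjusted p = 0.242), and 8 of the 31 had a difference above 0. A permutation of 2 arrays against 2 cannot give a two-sided p under 0.333, so no single gene could reach 0.05 that way.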

How the data were processed

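RNA of 6 A549 samples was hybridised to Affymetrix arrays. The values are log2 levels, deposited by the authors as a series table. Per the submitters' processing notes, Transcriptome Analysis Console 2.0 and Affymetrix Expression Console 1.3.1 were used, with the RMA method. The genome build was not given in the sources used here. RMA corrects background, makes the distributions of the arrays alike and sums probes, so a shift shared by all genes would be removed. No detection call was used. Precision is limited by having 2 arrays per group.

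Of 53617 probe sets, 23871 carried 1 gene symbol in the platform annotation, 1842 several and 27904 none. Symbols were updated through RefSeq (GRCh38.p14), which changed 90 of them, and 83 of the 84 members matched. The brightest probe set stood for each gene, giving 22395 genes. limma 3.58.1 in R 4.3.3 fitted 1 mean per group over all 6 arrays (lmFit, eBayes, 3 residual degrees of freedom), with 3 contrasts and Benjamini-Hochberg adjustment over all genes at 0.05. The fit was tested on simulated data.

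Named members were those called, the 6 highest and 6 lowest differences per comparison among members above the median gene with arrays apart, the 8 brightest and members with known roles, 29 in all. Neighbours on a chromosome were described as groups beside them. The members and lists were chosen with earlier results of these data known. Alternatives were a variance trend, brighter genes only, other scalings, every probe set, 2 groups only, the replicate number as a block and leaving out each array.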

Additional observations from a re-analysis of the deposited data

How the results depend on the processing

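No member was called against vehicle after Comp.2 under any alternative run. After Comp.4, 4 of 84 members (ZNF711, ZNF783, ZNF827, ZNF841) were called lower with a variance trend in limma, against 0 as reported. When only brighter genes were tested, the same 4 of 43 members were called lower. In Comp.4 against Comp.2 both of these settings called 4 lower (ZNF783, ZNF805, ZNF827, ZNF841). The count was 0 instead of 1 with every probe set tested, only 2 groups fitted or the replicate number as a block. ZNF841 then had limma adjusted p values of 0.0792, 0.114 and 0.0737, in that order. The call was also lost without each array in turn, where limma pools the spread and a lone array is assumed to vary like the others. For ZNF841, leaving out a vehicle array gave the same result as the fit of 2 groups. The labels name no source shared by equal replicate numbers, and same-numbered deviations correlated at 0.029, 0.012 and -0.042. Such small correlations show no strong shared shift, but they cannot settle whether arrays with equal numbers were handled together. The median difference after Comp.2 was 0.043 with brighter genes only and 0.035 with centring on brighter genes, and without each array it ran from 0.018 to 0.039. After Comp.4 it ran from -0.0080 to 0.029. In the direct comparison it was -0.073 with brighter genes only and -0.057 to -0.0092 without each array. With the arrays quantile normalized again, ZNF883 after Comp.2 was at -0.0029. Other sign changes came only from leaving out an array. The ranges after Comp.2 were -0.057 to 0.086 for ZNF883, -0.015 to 0.14 for ZNF837, -0.19 to 0.21 for ZNF786, -0.017 to 0.10 for ZNF830 and -0.20 to 0.021 for ZNF875. After Comp.4 they were -0.037 to 0.080 for ZNF703, -0.087 to 0.22 for ZNF706, -0.11 to 0.0068 for ZNF830, -0.010 to 0.13 for ZNF883, -0.059 to 0.0040 for ZNF750 and -0.0021 to 0.21 for ZNF791. Between the compounds they were -0.13 to 0.020 for ZNF746, -0.062 to 0.020 for ZNF768, -0.14 to 0.0045 for ZNF761, -0.10 to 0.28 for ZNF764, -0.13 to 0.041 for ZNF765, -0.15 to 0.0047 for ZNF800, -0.14 to 0.015 for ZNF747, -0.070 to 0.17 for ZNF749, -0.18 to 0.040 for ZNF791 and -0.059 to 0.20 for ZNF808. The cause of these changes was not tested. With 2 arrays per group, differences of the size seen for most members could not be told from the spread.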

Other observations

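Probe sets with several symbols were left out of the members, and 12 of them include a gene numbered ZNF700 to ZNF899. The probe set shared by ZNF718 and ZNF595 had log2 levels of 5.89 and 5.79 in vehicle, 5.68 and 5.73 in Comp.2, and 5.51 and 5.63 in Comp.4. The groups did not overlap, at -0.13 after Comp.2 and -0.26 after Comp.4. The probe set of ZNF815P and ZNF815 was at 5.47 and 5.44 in vehicle and at 5.66 and 5.68 in Comp.4, a difference of 0.22. One of the 2 probe sets shared by ZNF783 and LOC155060 was at -0.33 after Comp.4, with arrays of 3.43 and 3.44 beside 3.74 and 3.79 in vehicle, and the other at -0.05. No test result was read out for these probe sets.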
